A study of Mus musculus with 36 samples.

Results

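Libraries from mice that lack Elac2 in the prostate (KO) were set directly against libraries from mice that carry the A537T variant of ELAC2, at 30 weeks of age and without the TRAMP transgene. The 3 KO and 3 A537T libraries were taken by their genotype and age labels, as 6 of the 36 libraries of the series. In the series, mature microRNAs (miRNAs) were sequenced from total RNA of the ventral and lateral prostate lobes of male mice. The study describes the mice as matched by age and litter. KO and A537T were separate lines, and the study does not state that KO and A537T mice shared litters. In the direct comparison line and genotype cannot be told apart, and litters are not in the labels. The libraries formed 12 groups of 3. The groups were WT, KO and A537T at 10 and 30 weeks, each with and without TRAMP, a transgene that drives a viral oncogene in the prostate. KO and A537T were each studied against WT, and the direct comparison asks which miRNAs differed between loss of the enzyme and a single changed residue. The study reports that the variant also lowered the amount of ELAC2 protein in the prostate.

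The KO mice (ELAC2 Pb-Cre) lose Elac2 where the probasin promoter drives Cre, which is the prostate epithelium, so stroma, vessels, nerves and blood cells of the lobe keep the gene. The A537T mice carry threonine for alanine in both copies of Elac2 in every cell. Both lines and the WT mice had the strain label C56NL/6N, none of the 6 libraries is from a TRAMP mouse, and WT libraries of the same age are given below as levels only. A miRNA library holds no Elac2 mRNA, so the deletion and the variant could not be checked in these values. The labels number the replicates without naming animals, and the study describes the libraries of a group as coming from separate mice. In these whole lobes, fewer cells of a type and less RNA per cell cannot be told apart.

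ELAC2 is the RNase Z that cuts the 3′ trailer from precursor tRNAs in the nucleus and in mitochondria. A mature miRNA is cut from a hairpin by Drosha and Dicer and pairs with its target mRNAs mainly through its seed, bases 2 to 8. The Dlk1-Dio3 domain is an imprinted region whose maternal copy makes the long RNAs Meg3, Rtl1 antisense, Rian and Mirg, and with them a large group of miRNAs, which is known from brain, placenta and mesenchymal cells.

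The main pattern of this comparison was in Dlk1-Dio3 miRNAs. The list of neural and endocrine miRNAs had the lowest median difference, but most of its members overlapped between the groups. Mature sequences of members on which the results turn are shown from RefSeq (GRCm38.p6), 5′ to 3′, with the seed in capitals. The first set is from Dlk1-Dio3, all from the plus strand of chromosome 12. Their seeds differed from each other, and the only seed that tested members of the stretch shared was AUGUAAC, of miR-379-3p and miR-411-3p.
miR-127-3p: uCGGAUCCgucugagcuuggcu
miR-434-3p: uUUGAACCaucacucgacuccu
miR-409-5p: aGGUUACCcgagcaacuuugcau
miR-329-5p: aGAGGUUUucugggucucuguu
miR-410-3p: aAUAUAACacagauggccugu
miR-541-5p: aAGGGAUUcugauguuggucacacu

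The second set is from other loci. miR-7b-5p and miR-7a-5p are shown together because they share the seed GGAAGAC, while miR-9-5p is a miRNA of neurons and miR-451a one of red cells.
miR-7b-5p: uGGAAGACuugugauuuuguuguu
miR-7a-5p: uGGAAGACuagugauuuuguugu
miR-9-5p: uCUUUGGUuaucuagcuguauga
miR-451a: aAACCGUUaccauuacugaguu
miR-708-3p: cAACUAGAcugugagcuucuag

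The 6 libraries held 13859833 to 21870210 miRNA reads, in which 906 to 1055 of 1963 miRNA names were detected. Levels are given in reads-per-million (RPM) of the miRNA reads of a library, and 1 read was worth 0.0457 to 0.0722 of these. Differences are KO minus A537T on the scale of log2(RPM + 0.5), so that a negative value is lower in KO. The 14 miRNAs of luminal epithelium summed to 222880.0 to 323648 RPM in KO and 210359 to 256050.0 in A537T. Among them are the miR-200 family and miR-148a-3p, which alone had a mean of 163374 RPM over the 6 libraries. These are miRNAs of epithelium, so the sums cannot tell prostate from another epithelium and do not test the tissue label. KO library 23 and A537T library 26 stood apart from the other libraries of their groups, and WT library 19 from its own. Across 491 miRNAs, Pearson's r of log2 levels was 0.996 between KO libraries 22 and 24 and 0.968 and 0.977 between each of these and library 23, and 0.996 between A537T libraries 25 and 27 and 0.978 and 0.970 between each of these and library 26. Both were closest to WT library 19, with r = 0.993 for library 23 and 0.987 for library 26. Results are therefore given with and without libraries 23 and 26, a choice made after the data were seen. Where library 26 lay within the KO range, leaving it out helps to separate the groups by choice. All limma p-values and calls without libraries 23 and 26 are thus descriptive and are not a test of the difference.

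No miRNA passed an adjusted p of 0.05 with limma in the KO against A537T comparison. limma called 0 of 491 (0%) and edgeR 0 of 491 (0%), with 54 (11%) and 47 (9.57%) at an unadjusted p under 0.05, and DESeq2 called 4 of 491 (0.815%), with 49 (9.98%) at an unadjusted p under 0.05. Of the 54, 51 were lower in KO (10.4% of those tested) and 3 were higher (0.611%). Every KO library was below every A537T library for 65 miRNAs (13.2%) and above it for 6 (1.22%) with scaling to the library total. The 95% interval of a difference reached a median of 0.721 to either side, and 0.599 for the 148 miRNAs of at least 100 RPM.

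The median difference of all miRNAs tested was -0.14 with scaling to the library total, with 346 lower and 145 higher in KO. It was 0.01 with TMM scaling and 0.02 with median-of-ratios scaling, and the miRNAs at an unadjusted p under 0.05 then split into 28 lower and 9 higher, and 28 lower and 11 higher. Of all 491, 255 were higher in KO with TMM and 261 with median-of-ratios scaling. The miRNAs without overlap then split into 41 below and 25 above, and 36 below and 31 above. The excess of lower miRNAs over all 491 thus depended on the scaling, and small negative differences are read against -0.14.

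**Figure D1:**
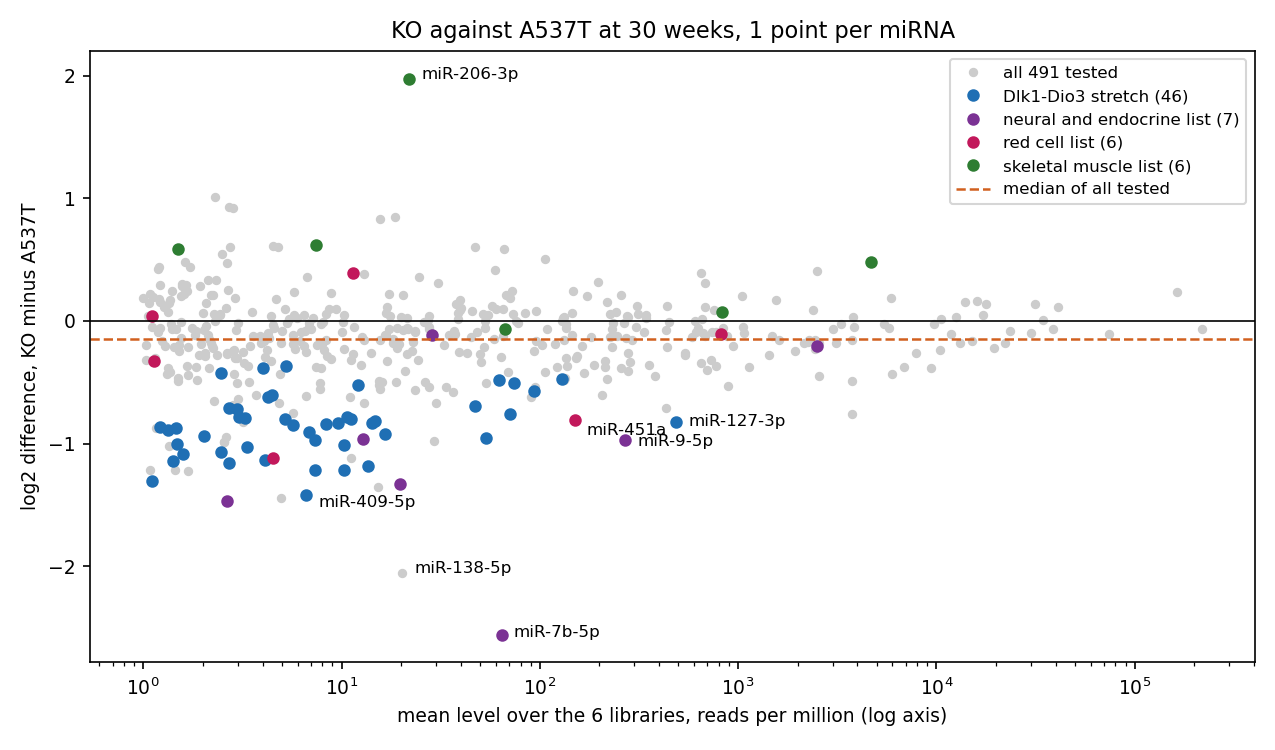
Mean level over the 6 libraries (log axis, RPM) against the log2 difference KO minus A537T, 1 point per miRNA for 491 miRNAs, with the Dlk1-Dio3 stretch, the neural, the red cell and the skeletal muscle lists in colour. The 46 miRNAs of the stretch all lie below the dashed median of -0.14, and miR-7b-5p is the lowest point and miR-206-3p the highest.

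The 4 miRNAs that DESeq2 called, with its own scaling, were miR-7b-5p (-2.74, DESeq2 adjusted p = 0.00167), miR-409-5p (-1.39, DESeq2 adjusted p = 0.0407), miR-329-5p (-1.09, DESeq2 adjusted p = 0.0453) and miR-206-3p (3.08, DESeq2 adjusted p = 0.0407). The first 3 were lower in KO and the last higher. 2 of the 4, miR-409-5p and miR-329-5p, are from Dlk1-Dio3. With libraries 23 and 26 both left out, which leaves 2 libraries in each group, limma called 72 of 495 (14.5%), of which 66 were lower in KO (13.3%) and 6 higher (1.21%). Without A537T library 26 alone it called 6, all lower in KO, and without any other single library it called 0.

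The listed miRNAs of the imprinted Dlk1-Dio3 domain that were tested had lower mean levels in KO than in A537T, though none passed limma. Of 45 listed, 40 were tested, and 40 of 40 were lower in KO, where 70.5% of all miRNAs tested were. The 40 share a region and the same 6 libraries, and many are both arms of a hairpin, so they are not independent observations. Every KO library was below every A537T library for 29 of the 40 (13.2% of all miRNAs tested). An unadjusted p under 0.05 was reached by 28 (10.4% of all were lower at that p). Their differences ran from -1.42 to -0.38 with a median of -0.83, which is -0.68 relative to the median of all tested. With TMM or median-of-ratios scaling the 40 were still all lower, with medians of -0.66 and -0.65. Under each of these scalings 21 did not overlap, where 41 and 36 of all 491 were below, and 18 had an unadjusted p under 0.05, where 28 of all 491 were lower at that p. With libraries 23 and 26 left out, limma called 33 of the 40, all lower, with a median of -1.05, where 66 of all 495 (13.3%) were called lower. The counts hold members with a mean little above the limit of 1 RPM, such as miR-667-3p (1.22), miR-493-5p (1.42) and miR-668-3p (1.47). Such members can pass the limit through their A537T level alone, and they were not set apart.

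Summed over the list, Dlk1-Dio3 miRNAs took 826, 1064 and 832 RPM in KO and 1523, 1366 and 1665 in A537T. The 2 groups did not overlap, and libraries 23 and 26 were the 2 nearest to each other. In WT the sum was 928 in library 19 and 3686 and 2984 in libraries 20 and 21. WT thus spanned both groups: library 19 was below all 3 A537T libraries for 35 of the 40 miRNAs, and libraries 20 and 21 were above all 6 mutant libraries for 37 of them.

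miR-127-3p measured 313, 424 and 324 RPM in KO libraries 22, 23 and 24 and 600.4, 573 and 697 in A537T libraries 25, 26 and 27, as the most abundant member. miR-127 is made from the strand opposite to Rtl1, a gene of the placenta, and its hairpin (chromosome 12, 109592846 to 109592915) lies over an exon of Rtl1 on the other strand. The groups did not overlap, and the difference was -0.82 (95% CI -1.30 to -0.35, limma adjusted p = 0.221). Its other arm, miR-127-5p, measured 11.1, 7.82 and 11.5 in KO and 18.7, 22.01 and 14.5 in A537T. It was likewise lower in each KO library, with a difference of -0.83 (95% CI -1.45 to -0.20).

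miR-434-3p measured 31.9, 44.7 and 33.3 RPM in KO and 76.95, 65.8 and 69.9 in A537T. Mir434 (chromosome 12, 109594506 to 109594599) also lies over the Rtl1 exon on the other strand, as does Mir136. The difference of miR-434-3p was -0.96 (95% CI -1.46 to -0.45, limma adjusted p = 0.221). The other arm, miR-434-5p, measured 53.2, 74.6 and 55.4 in KO and 93.1, 63.9 and 106 in A537T, and here the groups overlapped, since KO library 23 was above A537T library 26. Its difference was -0.50 (95% CI -1.11 to 0.11), and -0.87 (limma adjusted p = 0.00877) without these 2 libraries.

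miR-136-3p measured 10.6, 4.66 and 9.88 RPM in KO and 20.3, 15.7 and 20.4 in A537T, with a difference of -1.19 (95% CI -1.98 to -0.39). The groups did not overlap for this arm. For miR-136-5p, from the same hairpin, they did, at 2.37, 3.77 and 4.17 in KO and 5.53, 3.75 and 4.45 in A537T, and the difference was -0.38 (95% CI -1.08 to 0.31). miR-337-5p measured 9.47, 14.5 and 10.2 RPM in KO and 20.3, 22.4 and 22.3 in A537T, again with every KO library lower.

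At the far end of the domain, miR-409-5p measured 4.06, 3.36 and 2.71 RPM in KO and 10.2, 7.86 and 11.5 in A537T. Mir409 (chromosome 12, 109743158 to 109743236) is in an intron of the long RNA Mirg. This miRNA had the smallest p of the comparison, with a difference of -1.42 (95% CI -2.05 to -0.79) and a limma adjusted p of 0.221. Its other arm, miR-409-3p, measured 7.03, 7.41 and 5.42 in KO and 13.8, 11.1 and 16.8 in A537T, with no overlap and a difference of -1.01 (95% CI -1.62 to -0.40). miR-410-3p measured 4.26, 4.12 and 4.03 RPM in KO and 12.6, 7.43 and 11.6 in A537T, from an exon of Mirg (chromosome 12, 109743715 to 109743795). The 3 KO libraries lay close together and below the lowest A537T library, which was library 26, and the difference was -1.22 (95% CI -1.86 to -0.58).

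miR-329-5p measured 5.004, 5.90 and 7.16 RPM in KO and 14.2, 14.1 and 15.1 in A537T. Mir329 (chromosome 12, 109713481 to 109713577) lies in no other annotated gene. The 3 A537T libraries lay close together and each KO library was lower, with a difference of -1.21 (95% CI -1.76 to -0.66) and a limma adjusted p of 0.221. miR-329-3p, the other arm, measured 0.879, 3.98 and 1.81 in KO and 4.21, 5.05 and 4.11 in A537T. miR-487b-3p measured 0.744, 0.549 and 1.18 RPM in KO and 2.42, 2.24 and 3.01 in A537T, close to the lower limit of the test, with a difference of -1.23 (95% CI -1.93 to -0.53). Its KO mean alone was below that limit.

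The remaining members named by rule had the same order of groups, which the rule itself sets, since it takes only miRNAs without overlap. miR-541-5p measured 45.8, 64.6 and 47.7 RPM in KO and 82.6, 83.3 and 99.9 in A537T, miR-300-3p measured 33.4, 37.9 and 35.7 RPM in KO and 63.7, 52.2 and 58.4 in A537T, and miR-495-3p measured 6.76, 8.03 and 8.21 RPM in KO and 14.95, 11.8 and 13.9 in A537T. Their differences were -0.76, -0.69 and -0.78, and by the rule the groups did not overlap for any of the 3.

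**Figure D2:**
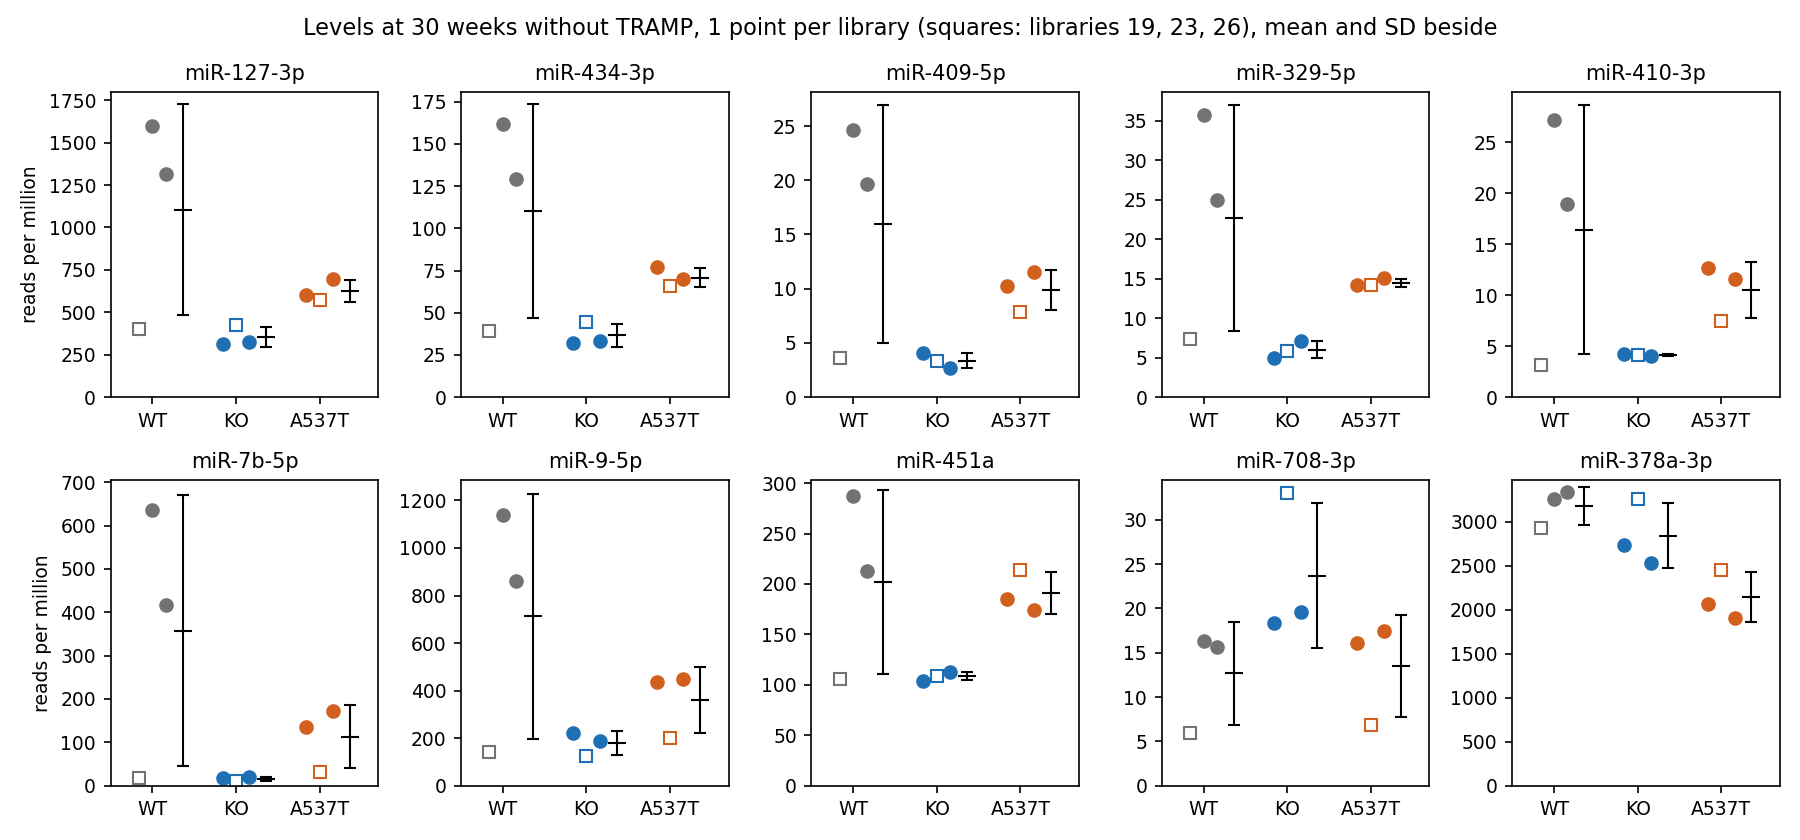
RPM (linear axis from 0) of 10 miRNAs in WT, KO and A537T libraries of 30 weeks, 1 point per library, with the mean and SD of each group of 3 beside it and open squares for libraries 19, 23 and 26. In the 5 Dlk1-Dio3 miRNAs of the upper row the KO points lie below the A537T points, and WT library 19 lies near the KO points while the other WT libraries lie highest.

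By position, RefSeq places 57 hairpins on chromosome 12 between 109563692 and 109747960 (184 kb, GRCm38.p6), in 2 runs within each of which neighbours are at most 50 kb apart. 46 mature miRNAs of these hairpins were tested, 37 of them on the list and 9 not, and 46 of 46 were lower in KO. As for the list, these are not independent observations. The first run, from the Meg3 end through the Rtl1 antisense hairpins to Rian (109563692 to 109618336), had a median difference of -0.85 over 15 miRNAs. The second run (109682197 to 109747960), whose tested members lie from Mir379 to Mir410, had a median of -0.81 over 31. The 9 miRNAs that the list did not hold had a median of -0.94, with 7 of 9 not overlapping (13.2% of all miRNAs tested were below without overlap). With TMM or median-of-ratios scaling 5 of 9 did not overlap, where 41 and 36 of all 491 were below. The 9 hold miR-673-5p (mean 1.10 RPM), miR-770-3p (1.33) and miR-496a-3p (1.48), which can pass the limit of 1 RPM through their A537T level alone. Among these 9, miR-379-3p, miR-329-5p, miR-376b-5p and miR-382-3p are the other arms of hairpins that the list did hold. Under TMM scaling 46 of 46 were lower, with a median of -0.68.

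**Figure D3:**
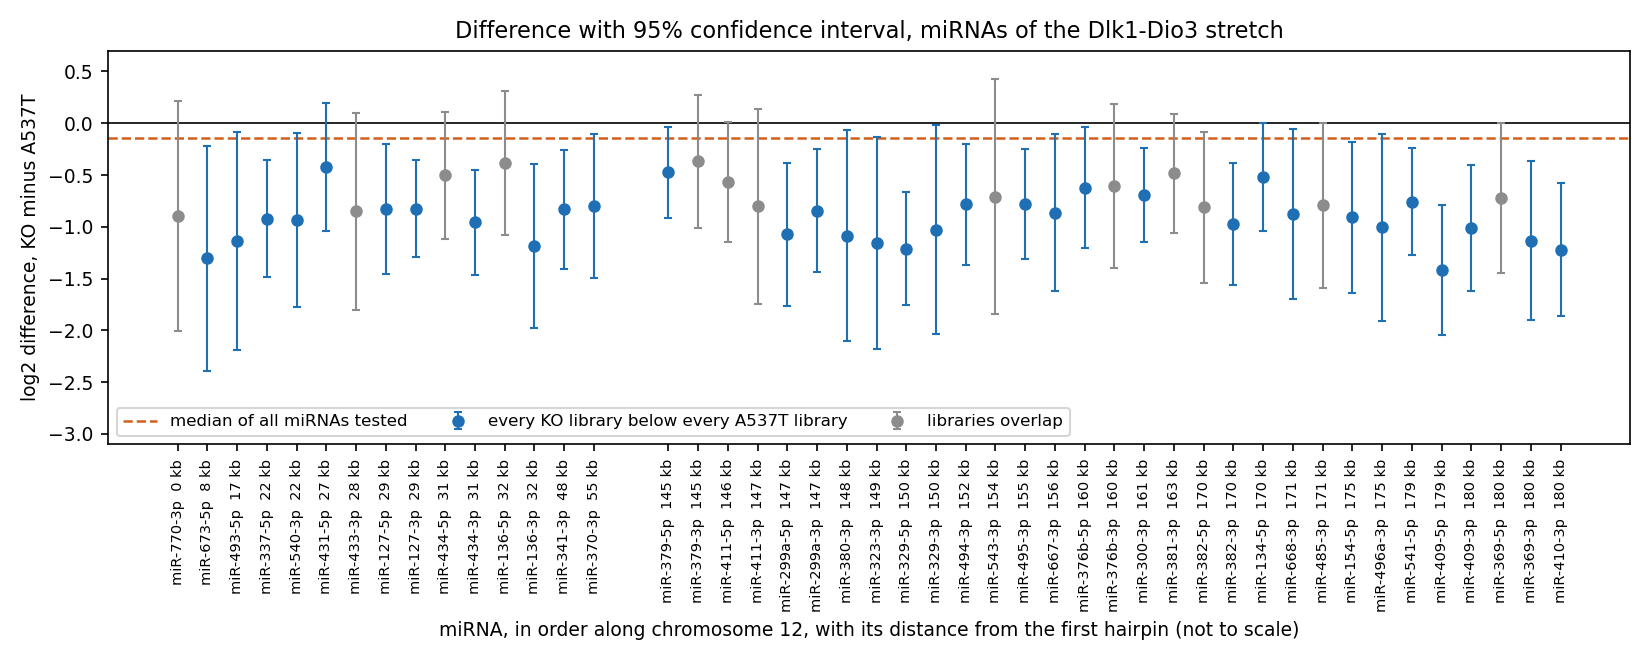
Log2 difference KO minus A537T with its 95% confidence interval for 46 miRNAs in their order along chromosome 12, with the distance of each from the first hairpin in kb (spacing not to scale). All 46 points are below 0 and below the median of all miRNAs tested (dashed, -0.14), in both runs, and blue points are miRNAs whose libraries did not overlap.

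The domain ends beyond these hairpins. miR-1247-3p, named here after its values were seen, comes from Mir1247 (chromosome 12, 110278048 to 110278129), over an exon of Dio3os at the Dio3 end of the domain and on the minus strand. It measured 3.31, 4.87 and 3.20 RPM in KO and 1.97, 2.74 and 0.890 in A537T, the opposite order to the stretch, with a difference of 0.92 (95% CI 0.05 to 1.80) and a limma adjusted p of 0.399.

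Dlk1-Dio3 miRNAs are also known from mesenchymal cells and nerves, so lists of other cell types of the lobe were set beside them. The 5 fibroblast miRNAs of the miR-199 and miR-214 hairpins summed to 8989, 6859 and 8889 RPM in KO and 10631, 11260.2 and 9272 in A537T. These sums did not overlap, with 4 of 5 lower in KO and a median difference of -0.24 against -0.83 for Dlk1-Dio3. With TMM scaling 3 of 5 were lower, with a median of -0.08. Smooth muscle miRNAs (5 of 5 lower, median -0.17) and endothelial miRNAs (1 of 2 lower, median -0.22) overlapped between groups in their sums, and smooth muscle turned to a median of 0.01 with median-of-ratios scaling. The part of cell composition in the Dlk1-Dio3 difference was not tested.

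Neural and endocrine miRNAs formed the list with the lowest median. Of 10 listed, 7 were tested, among them both arms of miR-9 and of miR-7a. All 7 of 7 were lower in KO (70.5% of all miRNAs tested were), and the median difference was -0.97. An unadjusted p under 0.05 was reached by 4 of the 7 (10.4% of all were lower at that p). With TMM scaling 6 of 7 were lower, the median was -0.81 and 1 had an unadjusted p under 0.05. Only 1 of the 7, miR-7b-5p, did not overlap between the groups, a share near the 13.2% of all miRNAs tested. In miR-9-5p, miR-9-3p and miR-124-3p, library 26 lay within the KO range.

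miR-7b-5p measured 17.1, 9.81 and 19.8 RPM in KO libraries 22, 23 and 24 and 135, 31.5 and 173 in A537T libraries 25, 26 and 27. Mir7b (chromosome 17, 56242988 to 56243098) lies in no other annotated gene, and miR-7 is known from pancreatic islets, pituitary and neurons. Each KO library was below each A537T library, the difference was -2.56 (95% CI -4.01 to -1.11, limma adjusted p = 0.221), and it was -3.02 (limma adjusted p = 0.000269) without libraries 23 and 26. WT measured 18.7, 636 and 418, which spans from the KO level to above all A537T libraries. miR-7a-5p, with the same seed, measured 2279.6, 2220.4 and 2383 in KO and 2125, 3711 and 2345 in A537T. It was the far more abundant of the pair, overlapped between groups, and had a difference of -0.21 (95% CI -0.78 to 0.37).

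miR-9-5p, a miRNA of neurons and their progenitors, measured 221, 123 and 189 RPM in KO and 436, 202 and 447 in A537T. A537T libraries 25 and 27 were above all KO libraries, and library 26 fell within the KO range. The difference was -0.97 (95% CI -1.83 to -0.11, limma adjusted p = 0.396). Its other arm, miR-9-3p, had the same order, at 9.13, 5.69 and 10.4 in KO and 22.7, 10.03 and 19.04 in A537T. miR-124-3p measured 1.76, 0.274 and 1.32 RPM in KO and 6.77, 1.44 and 4.25 in A537T, where miR-124 is an abundant miRNA of mature neurons, and library 26 again fell within the KO range. Without libraries 23 and 26 the differences were -1.11, -1.06 and -1.53, and the limma adjusted p-values were 0.0052, 0.00877 and 0.0102. These p-values are descriptive, since leaving out library 26 removes the A537T values within the KO range.

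miR-138-5p, named after its values were seen as the second lowest difference of all, measured 10.8, 1.92 and 9.25 in KO and 44.5, 8.59 and 46.7 in A537T. It had the pattern of the neural list, with library 26 inside the KO range, and a difference of -2.06 (95% CI -3.91 to -0.21). WT measured 4.34, 249 and 142. In WT, as in A537T, the library that stood apart from its group was the low one.

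Red cell miRNAs split. miR-451a measured 104, 109 and 113 RPM in KO libraries 22, 23 and 24 and 185, 214 and 174 in A537T libraries 25, 26 and 27. miR-451a is made in erythroid cells by Argonaute without Dicer, from a hairpin (chromosome 11, 78073170 to 78073241) next to that of miR-144, with Mir451b annotated on the other strand. The groups did not overlap, and the difference was -0.81 (95% CI -1.24 to -0.38, limma adjusted p = 0.221). WT measured 106, 287 and 213. miR-144-5p measured 3.25, 1.99 and 2.78 RPM in KO and 7.27, 6.06 and 5.68 in A537T, likewise without overlap, with a difference of -1.12 (95% CI -1.75 to -0.49). Of the 6 red cell miRNAs tested, 4 were lower and 2 higher in KO, with a median of -0.22, and the summed list overlapped (327 to 1328 in KO and 443 to 1533 in A537T). With TMM scaling the 6 split into 3 lower and 3 higher.

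White cell miRNAs were near the background. Of 11 tested, 6 were lower and 5 higher in KO, with a median of -0.13, which turned to 7 of 11 higher and a median of 0.03 with TMM scaling. miR-223-3p, a miRNA of neutrophils and monocytes, measured 23.7, 21.9 and 21.6 in KO and 34.02, 31.8 and 32.3 in A537T. Its groups did not overlap and its difference was -0.54 (95% CI -0.99 to -0.08, limma adjusted p = 0.396). miR-155-5p, which activated lymphocytes and macrophages make, went the other way, at 75.5, 59.7 and 68.6 in KO and 47.1, 60.2 and 45.8 in A537T, with a difference of 0.41 (95% CI -0.08 to 0.91). KO library 23 was just below A537T library 26, and without these 2 the difference was 0.63 (limma adjusted p = 0.0229). miR-146a-5p, a miRNA of NF-kB signalling, measured 2599.7, 1975 and 2602 in KO and 3202, 10284 and 1966 in A537T. Library 26 alone held the high level, and without libraries 23 and 26 the difference turned to 0.05.

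With scaling to the library total, few miRNAs were above A537T in every KO library. Among those of at least 10 RPM these were 2 of 280, and 31 of 280 were below, and the counts above and below were closer over all miRNAs under the other scalings, as given before. miR-708-3p measured 18.3, 33.1 and 19.6 RPM in KO and 16.1, 6.85 and 17.5 in A537T. Mir708 lies in an intron of Tenm4 on chromosome 7, in the same direction. The difference was 0.84 (95% CI -0.11 to 1.79, limma adjusted p = 0.529), and library 23 was the highest and library 26 the lowest of the 6. The more abundant arm, miR-708-5p, measured 40.7, 79.6 and 45.9 in KO and 50.5, 16.7 and 49.04 in A537T. It overlapped, and its difference of 0.60 (95% CI -0.49 to 1.70) turned to -0.20 without libraries 23 and 26, while that of miR-708-3p was 0.17.

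miR-378a-3p measured 2732, 3256 and 2535 RPM in KO and 2067, 2453 and 1907 in A537T. miR-378a is known to lie in Ppargc1b, a coactivator of mitochondrial genes, and is known from muscle and fat metabolism. Each KO library was above each A537T library, and the difference was 0.41 (95% CI -0.06 to 0.87, limma adjusted p = 0.536). WT measured 2927, 3259 and 3335, so that WT lay at or above the KO level. Of 5 members of the miR-378 family tested, 2 were higher and 3 lower in KO, with a median of -0.0020. With TMM scaling 4 of 5 were higher, with a median of 0.16 and 2 at an unadjusted p under 0.05, and with median-of-ratios scaling 4 of 5, with a median of 0.18 and again 2.

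The 3 miRNAs that were higher in KO at an unadjusted p under 0.05 were named for that after their values were seen, and were all rare. Beside miR-1247-3p, miR-12182-3p measured 3.52, 2.20 and 4.10 RPM in KO and 0.960, 1.66 and 1.44 in A537T, and miR-3473b measured 3.04, 3.43 and 4.52 RPM in KO and 1.42, 2.67 and 1.16 in A537T. Their differences were 1.01 (95% CI 0.26 to 1.76) and 0.93 (95% CI 0.15 to 1.71), and the limma adjusted p-values were 0.279 and 0.396.

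Skeletal muscle miRNAs had the highest median of the lists with more than 1 member tested, 0.53, with 5 of 6 higher in KO and 0 of 6 at an unadjusted p under 0.05. miR-206-3p, a miRNA of skeletal muscle, measured 3.52, 87.8 and 25.2 RPM in KO and 6.58, 2.67 and 6.16 in A537T. KO library 22 lay within the A537T range, and WT measured 154, 5.09 and 55.5, so that the libraries of each of these 2 groups differed by over 10-fold. The difference was 1.98 (95% CI -0.36 to 4.31, limma adjusted p = 0.563), and 0.57 (limma adjusted p = 0.679) without libraries 23 and 26. miR-1a-3p, of heart and skeletal muscle, measured 4118, 7284 and 4947 in KO and 4478, 2682 and 4558 in A537T, and its difference of 0.48 (95% CI -0.23 to 1.19) was -0.0014 without libraries 23 and 26. The part of muscle dissected with the lobes was not tested.

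The 10 miRNAs with the highest mean held 64.4% to 69.3% of each library's reads and did not separate the groups. miR-143-3p, of smooth muscle, measured 278714, 118143 and 256047 RPM in KO and 251509, 153125 and 251627 in A537T. miR-148a-3p, of secretory epithelium, measured 147457, 222367 and 162205 in KO and 131646, 147458 and 169109 in A537T. Low miR-143-3p went with libraries 23 and 26 in both groups, and high miR-148a-3p with library 23. For these 10 miRNAs (with miR-21a-5p, let-7f-5p, miR-26a-5p, miR-99a-5p, miR-200b-3p, let-7c-5p, let-7g-5p and miR-10a-5p) the differences ran from -0.18 to 0.23, each interval held 0, and all 10 overlapped.

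**Figure D4:**
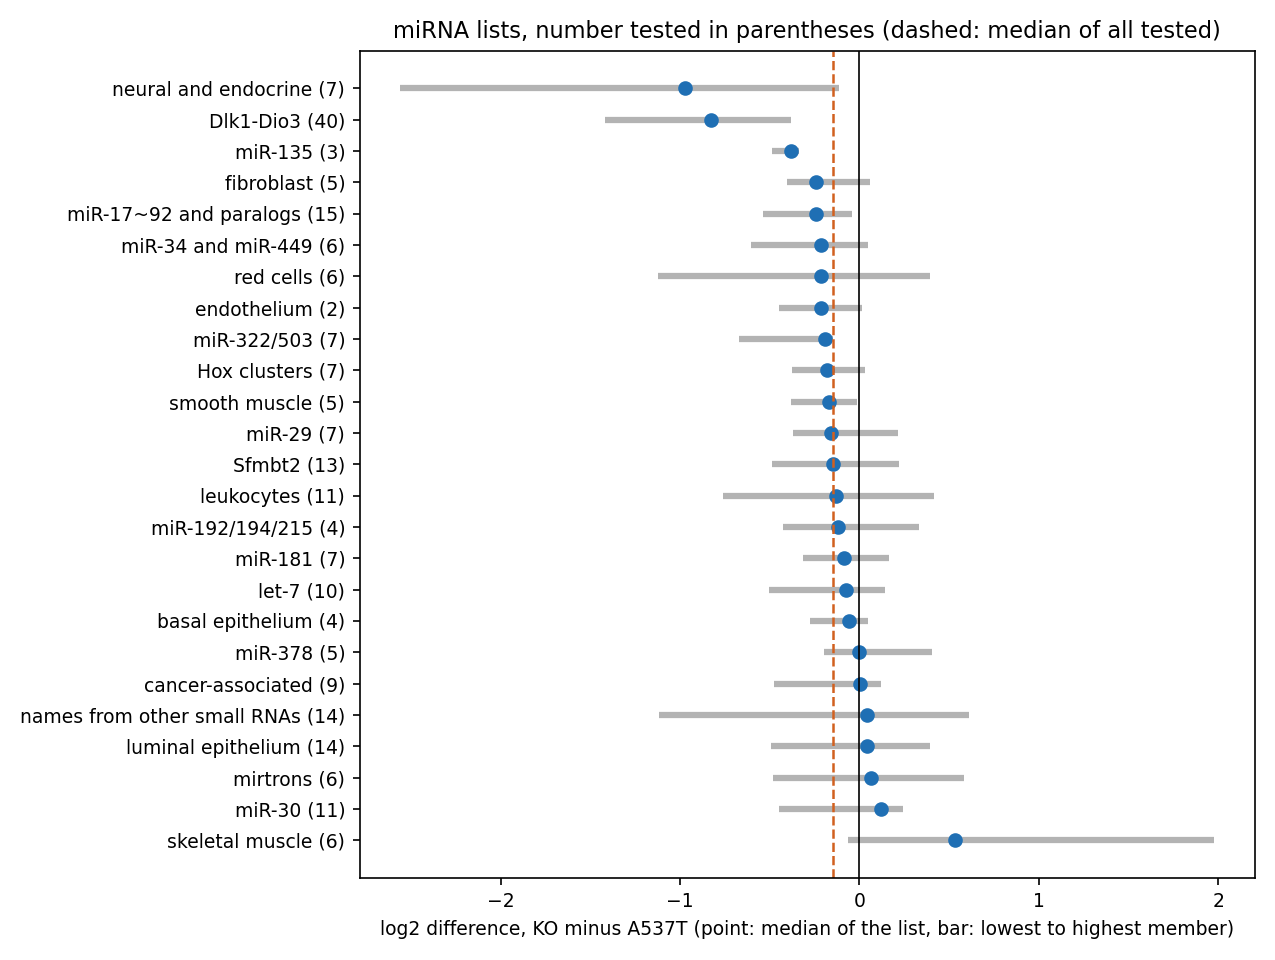
Median log2 difference KO minus A537T (points) and range from the lowest to the highest member (bars) for the miRNA lists with more than 1 member tested, without that of the study, with the number tested in parentheses. Neural and endocrine (-0.97) and Dlk1-Dio3 (-0.83) miRNAs lie lowest and skeletal muscle (0.53) highest, and the other lists lie between -0.38 and 0.12, around the median of all miRNAs tested (dashed, -0.14).

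Among other families, the miR-17~92 clusters, which promote cell growth, had 15 of 15 members lower with a median of -0.24. This is -0.10 relative to all miRNAs, 0 of 15 were without overlap, and 12 of 15 were lower with TMM scaling. The let-7 family (7 of 10 lower, median -0.07), the miR-30 family (3 of 11 lower, median 0.12), the miR-200 and luminal list (6 of 14 lower, median 0.04) and basal epithelial miRNAs (2 of 4 lower, median -0.06) had 0 members at an unadjusted p under 0.05. The let-7 family turned to 2 of 10 lower with TMM (median 0.092) and median-of-ratios scaling (median 0.11), and basal epithelial miRNAs turned to 1 of 4 lower (medians 0.081 and 0.094). Entries that derive from or resemble other small RNAs had 5 of 14 lower and a median of 0.04, with 0 at an unadjusted p under 0.05. With TMM and median-of-ratios scaling 2 of these 14 were lower, with medians of 0.21 and 0.22.

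Of the 6 miRNAs that the text of the study names, none passed limma with all 6 libraries, and 3 did without libraries 23 and 26 (miR-338-3p, miR-383-5p and miR-122-5p). The p-values without these libraries are descriptive, as stated above. The study names the miRNAs for mutants against their controls, with miR-669c-5p and miR-676-5p in KO-TRAMP mice. KO against A537T is another comparison and does not bear on those changes. miR-10a-5p, from the Hoxb cluster, measured 29834, 8886 and 24458 RPM in KO and 26995, 10889.6 and 32209.5 in A537T. Libraries 23 and 26 were low and the other 4 alike, with a difference of -0.18 (95% CI -1.48 to 1.11). miR-338-3p, from an intron of Aatk, measured 7.51, 5.69 and 9.46 in KO and 32.7, 8.01 and 28.7 in A537T, with a difference of -1.35 (95% CI -2.56 to -0.14), and -1.80 (limma adjusted p = 0.00301) without libraries 23 and 26. miR-383-5p measured 0.541, 0.206 and 0.556 in KO and 1.97, 0.938 and 2.26 in A537T, without overlap but at about 1 RPM. All its KO values were below the limit of 1 RPM, so it was tested through its A537T level alone. Its difference was -1.22 (95% CI -2.07 to -0.37), and -1.31 (limma adjusted p = 0.0102) without libraries 23 and 26. miR-122-5p, of liver, measured 4.33, 1.17 and 4.03 in KO and 2.01, 1.23 and 2.19 in A537T, and its difference was 0.55 (95% CI -0.52 to 1.62), and 0.85 (limma adjusted p = 0.0311) without them. For miR-669c-5p and miR-676-5p the groups overlapped, with differences of -0.13 and -0.08 that turned positive with TMM scaling, at 0.02 and 0.08.

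Libraries 23 and 26 shared some of what set them apart, and the miRNAs concerned had wide intervals. miR-135a-5p measured 82.03, 3.43 and 57.8 in KO and 82.2, 5.99 and 70.4 in A537T, so that the interval of its difference ran from -3.46 to 2.79. miR-10b-5p, from the Hoxd cluster, measured 18937, 2694 and 14612 in KO and 17999, 2716 and 22357 in A537T. In both miRNAs library 23 and library 26 were low and the other 2 of each group were alike. WT libraries measured 4.63, 8.66 and 5.94 for miR-135a-5p and 2356, 5464 and 4504 for miR-10b-5p, so that all 3 WT libraries, and not only library 19, were nearer to libraries 23 and 26 than to the other mutant libraries. What the 2 libraries share, such as the proportion of ventral and lateral lobe, is not in the labels, and its part in the results was not tested.

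At 10 weeks without TRAMP the same 2 genotypes were compared over 3 KO and 3 A537T libraries. limma called 35 of 521 (6.72%), with 119 at an unadjusted p under 0.05 (22.8%), 9 lower (1.73%) and 26 higher (4.99%) in KO, and 10, all higher, without A537T library 35, which held 655455 reads against at least 12422946 in the other 5. Dlk1-Dio3 miRNAs were lower in KO in 41 of 43 (48.2% of all miRNAs tested were), 14 at an unadjusted p under 0.05 (10.4% of all) and 15 without overlap (10.9% of all), with a median of -0.40 against 0.01 for all tested, and 3 passed the test (miR-411-5p, miR-411-3p and miR-494-3p, as limma calls). Their summed level was 2976, 3680.1 and 2968 RPM in KO and 3597, 4154 and 4851 in A537T, which overlapped in 1 pair of libraries, and each was above all 6 mutant libraries of 30 weeks. The 3 Dlk1-Dio3 calls did not pass without library 35, where all 10 calls were higher in KO. miR-7b-5p had a difference of 0.43 and miR-451a of -0.13 at 10 weeks. The smallest p at 10 weeks was that of miR-135a-5p (2.88, limma adjusted p = 0.0016), which at 30 weeks had a difference of -0.34.

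On the TRAMP background at 30 weeks most Dlk1-Dio3 miRNAs were not lower in KO. 10 of 41 were lower there (45% of all miRNAs tested were), with a median of 0.20 against 0.07 for all tested, 0 not overlapping below (8.72% of all) and 7 above (9.69% of all). Their summed level was 1556, 1775 and 1831 in KO-TRAMP and 1441, 1793 and 1140.0 in A537T-TRAMP, which overlapped. limma called 0 of 516 (0%) there, with 75 at an unadjusted p under 0.05 (14.5%), edgeR called 0 (0%) with 107 (20.7%) and DESeq2 41 (7.95%) with 115 (22.3%). The smallest p was that of miR-877-5p, a miRNA spliced from an intron of Abcf1 (1.26, limma adjusted p = 0.32). Without KO-TRAMP library 16 limma called 155.

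The difference between the comparisons was tested as an interaction. For the change from 10 to 30 weeks limma passed 0 of 511 (0%), with 74 at an unadjusted p under 0.05 (14.5%), 62 negative (12.1%) and 12 positive (2.35%), edgeR 0 with 63 and DESeq2 4 with 66. For the difference between the backgrounds limma passed 0 of 513 (0%), with 76 at an unadjusted p under 0.05 (14.8%), 71 negative (13.8%) and 5 positive (0.975%), edgeR 0 with 84 and DESeq2 8 with 86. Of the 40 Dlk1-Dio3 miRNAs in the test of the background, 40 had a more negative difference without TRAMP than with it (323 of all 513 did), 25 at an unadjusted p under 0.05, with a median of -1.09 against -0.24 for all tested. In the test of age 36 of 42 were more negative at 30 weeks (331 of all 511 were), with a median of -0.44 against -0.21, and 4 of 42 had an unadjusted p under 0.05, a smaller share than the 12.1% over all miRNAs. With TMM scaling the splits at an unadjusted p under 0.05 were 28 negative and 37 positive for age and 57 and 13 for the background, and with median-of-ratios scaling 34 and 30 for age and 35 and 29 for the background. Neural miRNAs were more negative at 30 weeks in 6 of 7, 5 at an unadjusted p under 0.05, and skeletal muscle miRNAs more positive in 6 of 6, 4 at an unadjusted p under 0.05. The skeletal muscle sum was high in some 10-week libraries, at 7732, 65052 and 7357 RPM in KO and 137263, 83588 and 37229.5 in A537T, against 3559 to 8209 in the 6 libraries of 30 weeks, and the 10-week median difference was -2.08. In the test of the background the muscle list had 0 of 6 at an unadjusted p under 0.05 and a median of 0.14. Without KO-TRAMP library 16 the test of the background passed 85 miRNAs. The 30-week libraries without TRAMP enter both tests, so the 2 are not independent.

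**Figure D5:**
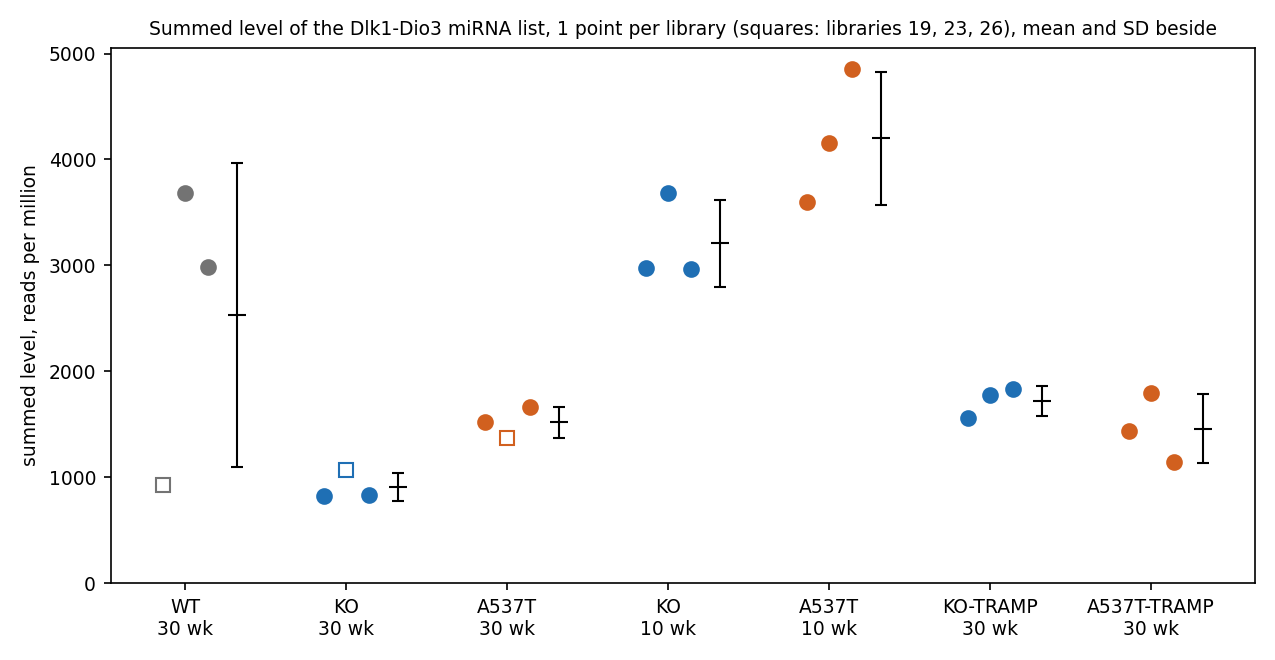
Summed level of the Dlk1-Dio3 list in RPM (linear axis from 0), 1 point per library, for WT at 30 weeks and for KO and A537T at 30 weeks, at 10 weeks and with TRAMP at 30 weeks, with the mean and SD of each group of 3 beside it. At 30 weeks without TRAMP the KO libraries (826 to 1064) lie below the A537T libraries (1366 to 1665), and the TRAMP groups overlap.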

How the data were processed

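Small RNA libraries of mouse prostate lobes were analysed from the tables that the authors deposited. The study states that reads were merged with BBMerge, and that miRNAs were quantified with mirDeep2 against miRBase on GRCm38, and the labels name the TruSeq Small RNA kit and DESeq2. The deposited values are a signal, miRNA read counts that the authors divided by DESeq2 size factors, in 8 tables of 6 libraries. Each value was a whole multiple of what 1 read is worth in its column (100% of values, within 1e-06), so reads were recovered and given as reads-per-million (RPM) of the library total, which also joins the tables. A column was assigned to a group by the name of its table, with the column that a KO and a mutant table share read as the control and "Mut" as A537T, and 0 of 48 columns were left without a group. Column numbers name the libraries. The deposited tables of the authors' comparisons (fold changes and s-values) were not used. miRNAs with near-identical mature sequences share reads, so values of such families are uncertain between members.

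miRNAs with a mean of at least 1 RPM over the libraries compared were tested on log2(RPM + 0.5) with limma 3.58.1 (moderated, with a variance trend, over the groups of the comparison) and Benjamini-Hochberg adjustment at 0.05 over all miRNAs tested. The test was also run on simulated counts with known changes, the same dispersion for all miRNAs and no library that stands apart. That run does not measure how many changes the test would miss in these libraries. edgeR 4.0.16 (quasi-likelihood) and DESeq2 1.42.0 were run on the recovered reads in R 4.3.3. Other alternatives were the pseudocount, the filter, the scaling, the variance trend, the libraries in the fit and each library left out. The members and lists were chosen with earlier results of these data known. Named miRNAs were, among those of at least 10 RPM whose groups do not overlap, up to 12 in each direction by p, their other arms, the 10 most abundant, the 6 that the study names, examples of lists by level or p, and the smallest p of the other comparisons. Sequences and hairpin positions are from RefSeq (423 of 491 miRNAs matched) and host genes from GENCODE, both GRCm38. Depth sets the counting error only, at 0.0457 to 0.0722 RPM for 1 read.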

Additional observations from a re-analysis of the deposited data

How the results depend on the processing

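For KO against A537T at 30 weeks, limma called 0 under the other pseudocounts (0.1 and 2), filters, scalings and trend setting and with WT or all 36 libraries in the fit, and 0 to 6 with 1 library left out, where 6 needed A537T library 26 to be out. DESeq2 called 4, and leaving out libraries 23 and 26 together, chosen after the data were seen, gave 72. At 10 weeks the count of 35 was 7 without the variance trend, 63 with DESeq2, 0 with all 36 libraries in one fit, and 4 to 43 with 1 library left out. With TRAMP at 30 weeks the count of 0 was 41 with DESeq2, 41 with all 36 libraries, and 0 to 155 with 1 left out. The interaction with age gave 4 with DESeq2 and 0 to 7 with 1 left out, and that with TRAMP gave 8 with DESeq2 and 0 to 85 with 1 left out. The cause of these changes was not tested.

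Of the 53 miRNAs named, these changed direction under at least 1 alternative. With TMM, median-of-ratios, edgeR and DESeq2 scaling the differences were miR-143-3p 0.098, 0.11, 0.12 and 0.15, miR-21a-5p 0.059, 0.075, 0.081 and 0.091, miR-26a-5p 0.10, 0.12, 0.11 and 0.13, let-7c-5p 0.068, 0.084, 0.12 and 0.13, let-7g-5p 0.085, 0.10, 0.076 and 0.095, miR-669c-5p 0.024, 0.040, 0.0042 and 0.031, and miR-676-5p 0.077, 0.093, 0.095 and 0.11. miR-877-5p turned to 0.024 with TMM and 0.037 with median-of-ratios scaling. Without libraries 23 and 26 the differences were -0.20 for miR-708-5p, 0.087 for miR-143-3p, -0.049 for miR-99a-5p, 0.062 for miR-7a-5p, 0.052 for miR-146a-5p, -0.0014 for miR-1a-3p and 0.083 for miR-877-5p. With 1 library left out the ranges were -0.31 to 0.33 for miR-143-3p, -0.33 to 0.14 for miR-21a-5p, -0.062 to 0.31 for let-7f-5p, -0.19 to 0.046 for miR-26a-5p, -0.059 to 0.10 for miR-99a-5p, -0.083 to 0.39 for miR-200b-3p, -0.37 to 0.11 for let-7c-5p, -0.66 to 0.35 for miR-10a-5p, -1.15 to 0.69 for miR-10b-5p, -1.52 to 1.04 for miR-135a-5p, -0.48 to 0.27 for miR-669c-5p, -0.25 to 0.0032 for miR-676-5p, -0.36 to 0.039 for miR-7a-5p and -0.39 to 0.21 for miR-877-5p. No miRNA of the Dlk1-Dio3 list that is named changed direction in any of these settings. Members named because their groups do not overlap could not change direction when libraries were left out. The filter, the variance trend and further libraries in the fit leave a difference as it is. For these members and settings the unchanged direction is thus no added support. No paired analysis was possible because the columns carry library numbers and no replicate number that pairs KO with A537T libraries.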
